A study of Rattus norvegicus with 24 samples.

Results

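The genes described here are the motile cilium genes of a table of 30667 genes measured in rat lung. They were chosen by name: every gene whose symbol starts with Dnah, Dnaic, Dnali, Dnaaf, Rsph, Tekt, Spag or Cfap followed by a digit, together with Foxj1, Ccdc39, Ccdc40, Ccdc153, Dynlrb2 and Tmem212. This gave 85 genes, and all 85 passed the filter on low values (a mean of at least 0.5 over all samples). The study describes a model of lung cancer in rats exposed to smoky coal, and all 24 samples are Rattus norvegicus lung tissue that carry the protocol label smoky coal. Each sample has a letter (A, B, C or G, 6 samples each) and a number from 1 to 6 (4 samples each). The labels do not say what a letter or a number stands for, name no control, treatment, dose, time or age, and do not say whether samples came from separate animals, so p-values measure only the spread between these samples.

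Motile cilia are the beating projections of multiciliated airway cells, which move mucus out of the lung. Each is built on an axoneme of microtubule doublets around a central pair. Outer and inner dynein arms slide the doublets, radial spokes and the central pair regulate the arms, tektins and other microtubule inner proteins stiffen the doublets, and assembly factors load the dyneins in the cytoplasm. Foxj1 is the transcription factor that switches on this set of genes, together with factors of the RFX family.

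Symbols were looked up in the rat RefSeq gene table (assembly GRCr8), where 77 of the 85 were found directly, 3 by a synonym and 5 not at all. The 5 were Dnah7a, Dnah7b, Dnah7c, Rsph3a and Rsph3b. Promoter sequence was held for 67 of them, and Foxj1 itself was not among these. A core motif of the RFX factors, GTTGCC on either strand, lay within the 250 bases before a listed start in 23 of the 67 members (34.3%), against 10.8% of 27457 genes. The forkhead motif TGTTTAC on either strand, the kind that Foxj1 binds, lay there in 5 of the 67 (7.46%), against 3.54% of all genes. The 67 members had 111 listed starts and the 27457 genes had 33469, so the chances of a match per gene were unequal. Per start, the shares were 26.1% against 9.89% for the RFX core and 5.4% against 3.2% for the forkhead motif. Of the members with the RFX core, 17 of 23 differed across sample numbers in the test described below, and of those without it 31 of 44. The median Pearson correlation with Foxj1 over the 24 samples was 0.826 in members with the RFX core and 0.878 in those without it, and 0.464 in the 5 with the forkhead motif and 0.855 in the others. The stretches below show 3 members whose values ran closely with Foxj1 (Ccdc153, Spag6l and Dnali1, r of 0.94, 0.94 and 0.96) and 3 that ran with it less closely or not at all (Dnah11, Tekt2 and Cfap20, r of 0.60, -0.03 and 0.08). Each is 60 bases of RefSeq sequence 5′ to 3′ on the gene's strand, with the motif in capitals. The motif is the RFX core or its reverse complement, except in Dnali1, where it is the forkhead motif.
Ccdc153: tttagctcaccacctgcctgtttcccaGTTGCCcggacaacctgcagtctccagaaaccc
Spag6l: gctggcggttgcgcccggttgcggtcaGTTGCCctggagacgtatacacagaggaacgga
Dnali1: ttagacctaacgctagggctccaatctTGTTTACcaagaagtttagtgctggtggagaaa
Dnah11: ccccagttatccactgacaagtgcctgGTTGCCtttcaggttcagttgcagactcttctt
Tekt2: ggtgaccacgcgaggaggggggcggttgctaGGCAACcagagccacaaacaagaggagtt
Cfap20: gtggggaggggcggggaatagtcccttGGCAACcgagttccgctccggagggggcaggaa
These lie before the starts of Ccdc153 (RefSeq Drc12) at chr8:53474469-53474528, Spag6l at chr11:97677749-97677808 and Dnali1 at chr5:142612123-142612182. The others lie at chr6:145213737-145213796 for Dnah11, chr5:143907725-143907784 for Tekt2 and chr19:9614800-9614859 for Cfap20. A match is a description of these letters only, and both kinds of member carried the RFX core. Cfap20 also carries the forkhead motif, outside the stretch shown.

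Values are normalized read counts per gene as deposited, so a level may be compared between samples but not between genes, whose lengths are not taken into account. Their sum ran from 61717516 to 66007148 per sample, and the reads behind them are unknown. The submitters' processing notes name the mouse build GRCm38 beside these rat samples, and what this does to the value of each gene was not tested. Samples A4 and B4 stood apart in genes of skeletal muscle, whose summed level was 83802 in A4 and 19932 in B4 against 1666 to 3709 in the other samples. A4 also stood apart in oesophageal and squamous epithelium genes, at 16843 against at most 1424 elsewhere. Counts of calls are given with and without these samples, as are the named calls in a single number that were lost without them. The members vary together in bulk tissue, where fewer ciliated cells and less RNA per ciliated cell cannot be told apart.

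The motile cilium genes rose and fell together from sample to sample. For each gene the log2 of the value plus 1 was centred on its mean over the 24 samples, and the median of the 85 centred values was taken in each sample. This median was lowest in B1 at -0.52, C3 at -0.40, A2 at -0.40 and B2 at -0.39. It was highest in G5 at 0.65, B4 at 0.46 and A4 at 0.42. In G5, 81 of the 85 genes lay above their own mean and 49 had their highest value of all samples. In A3, 2 of 85 lay above their own mean. Such counts were not made over all genes. The ratio of the highest to the lowest sample had a median of 2.53 over the 81 genes at 10 or more in every sample, from 1.13 in Spag7 to 10.2 in Spag5.

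**Figure D1:**
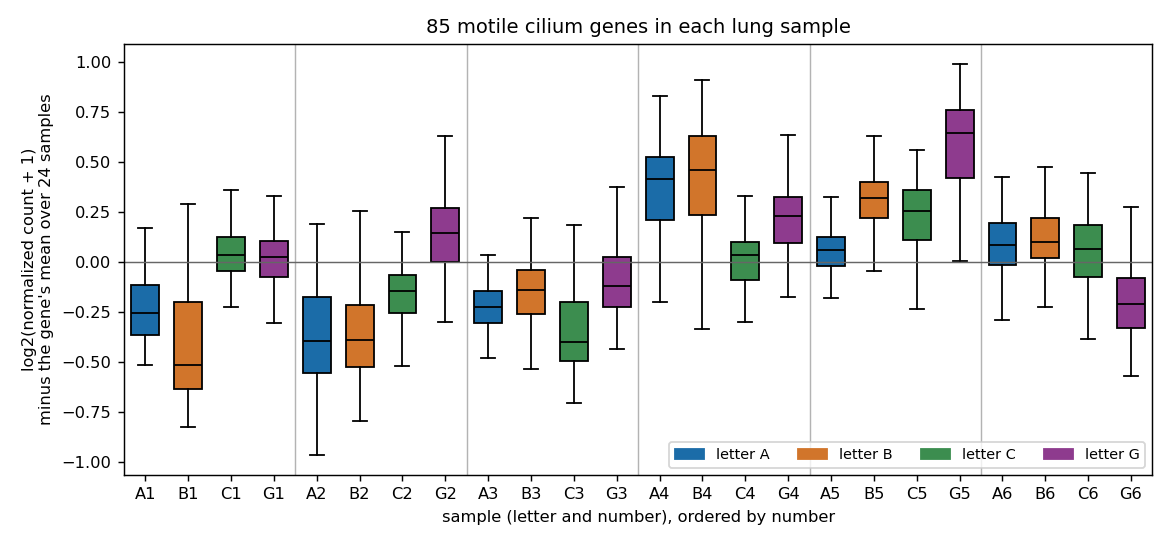
Each box gives the 85 genes in 1 sample as log2(normalized count + 1) centred on the gene's own mean (box, middle 50% of genes; line, median; whiskers, the most extreme genes within 1.5 box lengths; genes further out not drawn), ordered by number and coloured by letter. The medians run from -0.52 in B1 to 0.65 in G5.

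The letters are the only grouping the sample names offer beside the numbers, and the question asked of them was whether any motile cilium gene differed between A, B, C and G. None of the 85 passed the test across the 4 letters (limma F test on log2(value + 1), Benjamini-Hochberg adjusted p under 0.05), where 0.00652% of all genes tested did. No member had an unadjusted p under 0.05 across letters either, against 3.91% of all genes. These shares are not like for like, because the fit had no term for the number. The number held a median of 56.7% of a member's variance, against 37.1% for all genes. With the number as a block, 0 members were called across letters. None passed in any of the 6 pairs. The share of all genes called was 0% in each pair of A, B and C, 0.00652% in G against A, 0.00326% in G against B and 0.00652% in G against C. The letter accounted for a median of 6.12% of a member's variance, and 9.45% for the median of all genes.

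Foxj1 was 4669 ± 915 (mean ± SD, n = 6) in letter C, 4895 ± 1505 in letter A, 5177 ± 1841 in letter B and 5662 ± 1632 in letter G. The groups overlapped over most of their range, and the order C, A, B, G lay within the spread. G against A differed by 0.21 on the log2 scale (SE 0.22, adjusted p = 0.836, limma), and without A4 and B4 by 0.35 (adjusted p = 0.639). The members' median difference was 0.16 in G against A, 0.12 in G against B and 0.14 in G against C, comparisons that share the 6 samples of G, and the median of all genes lay within 0.01 of 0 in each. In G against A, 75 of 85 members had the higher mean in G, 73 in G against B and 79 in G against C. The median for G against A was 0.05 without G5, 0.09 without A2, 0.08 without the samples numbered 2 and 0.25 without A4, with or without B4.

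The members with the smallest p across letters (limma F test) were Spag9, Cfap157, Dnah8, Rsph6a and Rsph3b, and none passed. Of these, Spag9 is not a cilium gene, and Rsph6a, of the radial spoke, was listed near 0, at most 9.73 in any sample. Spag9, a scaffold protein of kinase signalling and vesicle transport that shares only its name with the cilium genes, was 12242 ± 1018 in A and 13977 ± 1244 in G. That difference of 0.19 (SE 0.07) had the lowest adjusted p of any member in any pair, 0.455 (limma). Cfap157, a cilium and sperm tail protein, differed by 0.27 in G against B (adjusted p = 1, limma). Dnah8, a dynein heavy chain best known from sperm, differed by 0.68 in B against A (adjusted p = 1, limma), with a highest value of 42.7 in any sample. Rsph3b, of the radial spoke, ranged from 85.7 to 161 over all samples.

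Across the 6 numbers the picture was different. Of the 85 members, 59 (69.4%) differed across numbers (limma F test, adjusted p under 0.05), against 30.3% of all genes tested. Without A4 and B4 the count was 48, and the share of all genes in that fit is not given. The number accounted for a median of 56.7% of a member's variance, from 3.41% to 75.8%, against 37.1% for the median of all genes. By the mean over the 4 letters, 43 members were highest in the samples numbered 5 and 30 in those numbered 4, and 38 were lowest in number 3 and 32 in number 2. For no member did all 4 samples of any number lie above the other 20. In number 2, 1 member had all 4 samples below the other 20, and in the other numbers none did. The share of all genes that did so, or that were highest or lowest in a given number, was not computed. Nor was it for the pairs of numbers said below not to overlap. Those pairs were taken from these same values, so they are descriptions and no further support.

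The number with the highest values was not the same in every letter. In A, 61 of 85 members were highest in A4, and in B, 57 were highest in B4. In C, 58 were highest in C5, and in G, 68 in G5. The lowest values lay in A2 for 49 members, in B1 for 41 and in B2 for 29, in C3 for 59, and in G6 for 48. With 1 sample for each letter and number, whether letters differ in this order cannot be tested. How many of all genes were highest or lowest in each of these samples was not computed.

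Each number was then set against the mean of the other 5. In number 4, 18 members were called higher (2.41% of all genes) and 0 lower (1.79%), with a median log2 difference of 0.34. In number 5, 9 were called higher (0.708%) and 0 lower (0.903%), with a median of 0.37. In number 1, 0 were called higher (5.23%) and 5 lower (5.74%), and the median was -0.19. In number 2, 1 was called higher (11.0%) and 21 lower (9.74%), and the median was -0.25. In number 3, 0 were called higher (2.50%) and 11 lower (1.92%), and the median was -0.27. In number 6, 1 was called higher (3.71%) and 1 lower (3.53%), and the median was 0.01.

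These contrasts share samples, and several counts moved when A4, B4 or another sample was left out. Without A4 and B4, number 4 held only C4 and G4. It then had 0 members called and a median of 0.18, and number 5 had 17 called and a median of 0.41. What the smaller group did to the calls of number 4 was not tested. The share of all genes called in these and the other fits with samples left out is not given. A moved count therefore cannot be read as particular to the members. Number 4 had 3 called without A4 alone and 1 without B4 alone, with medians of 0.29 and 0.26. Of the calls made with all samples, 4 of 5 in number 1, 15 of 22 in number 2, 5 of 11 in number 3, 0 of 18 in number 4, 8 of 9 in number 5 and 2 of 2 in number 6 held without A4 and B4. Number 5 had 0 called without B5, without C5 or without G5, and number 1 had 1 without B1. Number 3 had 0 without C3, 2 without A3 and 2 without G3, and number 6 had 0 without A6. Number 2 had 5 members called without A2, 7 without B2 and 42 without G2. The summed skeletal muscle level, high in A4 and B4, was 1768 to 2581 in the samples numbered 5, within the range of the other numbers.

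**Figure D2:**
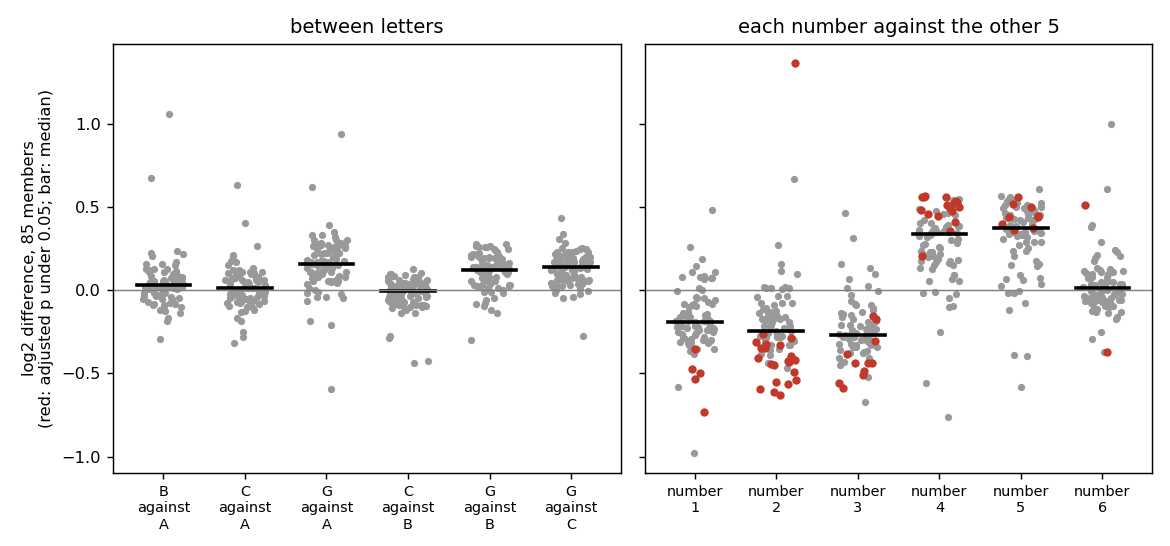
Each point is 1 of the 85 members, with its log2 difference on the vertical axis for the 6 letter pairs (left) and for each number against the other 5 (right). Red points have an adjusted p under 0.05 (limma) and black bars are medians. No point is red between letters, and the medians of numbers 4 and 5 lie at 0.34 and 0.37.

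Foxj1, the master regulator, was higher in number 4 and lower in number 1. It stood at 3434 in A1, 2987 in B1, 4538 in C1 and 4208 in G1. It was 3886 in A2, 3695 in B2, 4347 in C2 and 6049.6 in G2. It was 4135 in A3, 4751 in B3, 3332 in C3 and 4455 in G3. Of these 12 values, G2 alone came above that of B6. In number 4 it reached 7619.7 in A4, 8013 in B4, 5152 in C4 and 6770.2 in G4. In number 5 it reached 5302 in A5, 6491 in B5, 6093 in C5 and 8205 in G5, and in number 6 4991 in A6, 5123 in B6, 4551 in C6 and 4283 in G6. The means ± SD (n = 4) were 3791 ± 708 in number 1, 6889 ± 1269 in number 4 and 6523 ± 1226 in number 5. Number 4 against the others differed by 0.56 (SE 0.13, adjusted p = 0.0128), and number 1 by -0.47 (SE 0.13, adjusted p = 0.0155), by limma. Numbers 2, 3 and 5 did not pass, at -0.19 (SE 0.13, adjusted p = 0.339), -0.30 (SE 0.13, adjusted p = 0.216) and 0.47 (SE 0.13, adjusted p = 0.0575). Without A4 and B4 the difference of number 4 was 0.36 (adjusted p = 0.562) and that of number 5 was 0.51 (adjusted p = 0.0412).

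**Figure D3:**
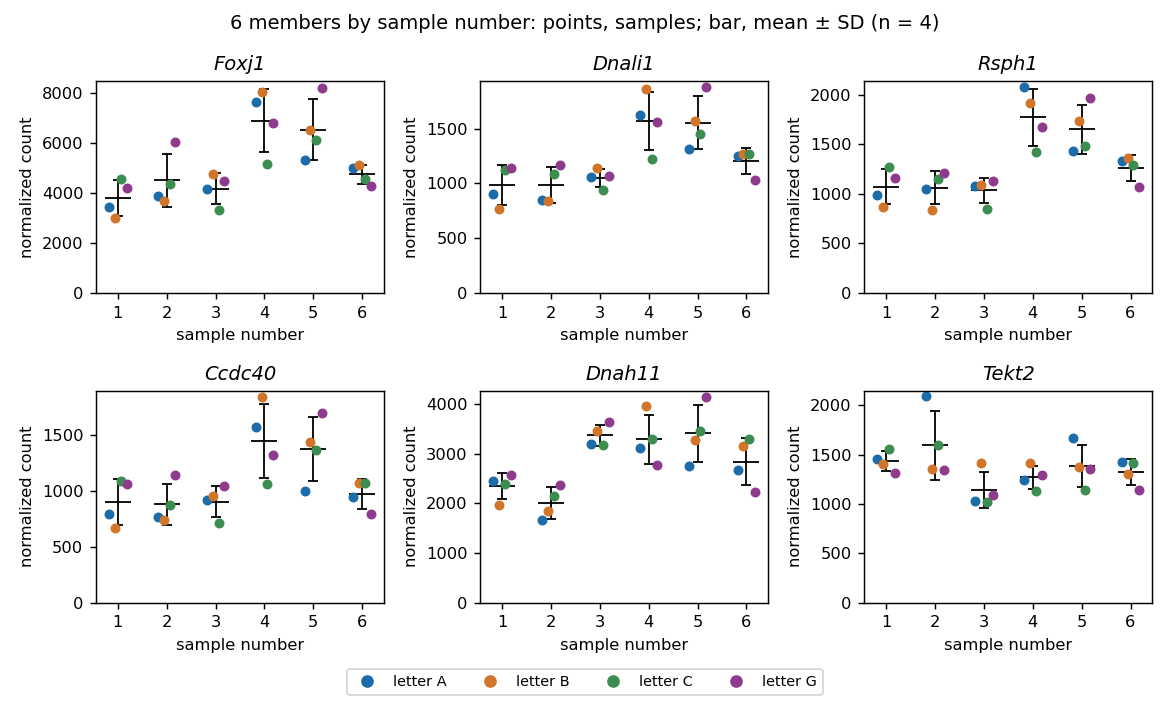
Normalized counts of Foxj1, Dnali1, Rsph1, Ccdc40, Dnah11 and Tekt2 by sample number, on axes that start at 0, with 1 point per sample coloured by letter and the mean ± SD (n = 4) in black. Foxj1, Dnali1, Rsph1 and Ccdc40 have their highest means in number 4, while Tekt2 has its highest mean in number 2. The number 3 samples of Dnah11 all lie above its number 2 samples.

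The dynein arms are the motors. Of the 5 outer arm heavy chains 2 differed across numbers, of the 10 inner arm and other heavy chains 7, and of the 4 intermediate and light chains 3. Over all genes 30.3% did, the share to set beside these counts and those of each role below. Dnah9, an outer arm heavy chain of airway cilia, ranged from 1987 to 6121 and was 2483 ± 583 in number 2 and 4649 ± 1138 in number 5. Its difference in number 2 was -0.54 (SE 0.14, adjusted p = 0.00897) by limma. Dnah5, the other main outer arm chain of the airway and named after its values were seen, ranged from 675 to 3026. It was lower in number 2, by -0.63 (SE 0.20, adjusted p = 0.0279), but missed the threshold across numbers (adjusted p = 0.0512). Dnah12, an inner arm heavy chain, ranged from 3138 to 7478 (adjusted p across numbers 0.0138, limma).

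Dnah14, a less studied heavy chain, had the largest share of variance by number of all members, 75.8%. It was 155 in A2, 144 in B2, 175 in C2 and 185 in G2. It was 349 in A6, 317 in B6, 291 in C6 and 275 in G6. The number 6 samples lay above every number 2 sample. It was the member called higher in number 6, by 0.52 (SE 0.11, adjusted p = 0.00729), and it was lower in number 2 by -0.57 (SE 0.11, adjusted p = 0.000878) and in number 3 by -0.44 (SE 0.11, adjusted p = 0.0263), by limma. Dnah7a, Dnah7b and Dnah7c were not found among rat RefSeq symbols. Reads may have been split between them, so their separate values are uncertain.

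Dnah11, an outer arm heavy chain named here by its small p across numbers, departed from the others in number 3. It was 3198 in A3, 3449.5 in B3, 3178 in C3 and 3635 in G3. In number 2 it was 1664 in A2, 1845 in B2, 2149.9 in C2 and 2364 in G2. All 4 number 3 samples lay above all 4 number 2 samples, whereas Foxj1 overlapped between these numbers. In number 2 it was lower by -0.59 (SE 0.10, adjusted p = 0.00025), and in number 3 it stood at 0.32 (SE 0.10, adjusted p = 0.089), which did not pass. On the rat map its span overlaps that of Cdca7l, and counting of shared reads is not given in the sources used here. The processing notes name a mouse build, on which this overlap was not looked up.

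The light chains followed Foxj1 closely. Dnali1, an inner arm light chain chosen for description after its values were seen, was 852 in A2, 840.4 in B2, 1083 in C2 and 1166 in G2. In number 4 it was 1628 in A4, 1865 in B4, 1222 in C4 and 1564 in G4, and every one of these lay above every number 2 value. It was called in numbers 1, 2, 4 and 5, at -0.35, -0.35, 0.46 and 0.44. Number 4 gave 0.29 (adjusted p = 0.597) and number 1 -0.32 (adjusted p = 0.0665) without A4 and B4. Dynlrb2, a roadblock light chain that also serves intraflagellar transport, was 1513 ± 197 in number 3 and 2754 ± 488 in number 4. It was lower in number 3 by -0.51 (SE 0.13, adjusted p = 0.0201) and higher in number 4 by 0.51 (SE 0.13, adjusted p = 0.0216) by limma, and without A4 and B4 the latter was 0.30 (adjusted p = 0.644).

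Of the 8 assembly factors, which fold and load dyneins before they enter the cilium, 7 differed across numbers. Dnaaf5, the factor with the highest values, ranged only from 1333 to 1998, and was 1628 in A4, 1998 in B4, 1680.3 in C4 and 1892 in G4. It was higher in number 4 by 0.21 (SE 0.06, adjusted p = 0.0367), and without A4 and B4 this was 0.20 (adjusted p = 0.388). Dnaaf2 was lower in number 1, by -0.53 (SE 0.14, adjusted p = 0.0139), at values from 27.2 to 64.8. Dnaaf4 was listed near 0, between 0 and 5.09 in every sample, too low for a fold change to be read.

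Of the 10 radial spoke genes 6 were called, and Rsph1 and Rsph9 had the smallest p across numbers of all members. Both were named for that, so gaps between their numbers add no support. Rsph1, a spoke head protein, stood at 1084 in A3, 1085 in B3, 851 in C3 and 1129.8 in G3. In number 4 it stood at 2076 in A4, 1916 in B4, 1423 in C4 and 1674 in G4, with no overlap with number 3. Its means were 1074 ± 179 in number 1, 1772 ± 286 in number 4 and 1653 ± 247 in number 5. The difference of number 4 was 0.56 (SE 0.11, adjusted p = 0.00449) and that of number 5 0.44 (SE 0.11, adjusted p = 0.0385) by limma. Without A4 and B4 they were 0.38 (adjusted p = 0.417) and 0.48 (adjusted p = 0.0269).

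Rsph9, another spoke head protein, was called in numbers 2, 3, 4 and 5, at -0.26, -0.31, 0.41 and 0.37. The number 4 difference was 0.30 (adjusted p = 0.442) without A4 and B4, and there numbers 2 and 3 had adjusted p of 0.0573 and 0.0693. It stood at 1455 in A5, 1557 in B5, 1540.5 in C5 and 1779 in G5, and all 4 lay above its 12 values in numbers 1, 2 and 3, the highest of which was 1383 in G2. Rsph10b, the spoke gene with the highest values, ranged from 1223 to 2754 (adjusted p across numbers 0.0101, limma). Rsph6a, the sperm counterpart of the airway spoke protein Rsph4a, was at most 9.73. Rsph3a and Rsph3b were not found among rat RefSeq symbols, and their values are uncertain.

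Among central pair genes 10 of 12 were called across numbers. Cfap70, with the highest values of this group, ranged from 1214 to 2548 and was lower in number 2 by -0.35 (SE 0.09, adjusted p = 0.00556) by limma. In number 2 it was 1214 in A2, 1414 in B2, 1723 in C2 and 1894 in G2, and in number 5 it was 1954 in A5, 2288 in B5, 2151 in C5 and 2548 in G5, with no overlap. Spag6 and Spag6l are close copies, and of the pair Spag6 was called lower in number 1 (-0.49, values from 43.1 to 125) and Spag6l higher in number 4 (0.48, values from 835 to 1975). The latter was 0.26 (adjusted p = 0.692) without A4 and B4.

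The molecular rulers Ccdc39 and Ccdc40, which set the repeat of arms and spokes along the doublet, did not give the same calls. Ccdc40 was 1570.4 in A4, 1841 in B4, 1063 in C4 and 1324 in G4, higher in number 4 by 0.54 (SE 0.14, adjusted p = 0.0363). This was 0.28 (adjusted p = 0.711) without A4 and B4. Ccdc39 was 1156 in A4, 1037 in B4, 869.8 in C4 and 1005 in G4, a difference of 0.06 (SE 0.13, adjusted p = 0.872), and -0.05 (adjusted p = 0.965) without A4 and B4. Its mean was highest in number 5, where it was 962 in A5, 1225 in B5, 1266 in C5 and 1685 in G5, and across numbers it had an adjusted p of 0.0827 by limma, against 0.00704 for Ccdc40. The difference between these genes was not tested. Cfap44, a tether protein of the inner arms, ranged from 2722 to 7318 and missed the threshold across numbers (adjusted p = 0.0916, limma).

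Tektins and other microtubule inner proteins held 11 calls by number in 12 members, but not all ran with Foxj1. Tekt2, chosen for description after its values were seen, was the member not called. It was 2093 in A2, 1354 in B2, 1600.0 in C2 and 1345 in G2, and in number 3 it was 1029.5 in A3, 1412 in B3, 1024 in C3 and 1097 in G3. Its highest sample was A2, where Foxj1 was among its lower values. Cfap20, a microtubule inner protein that non-ciliated cells also make, ranged only from 2733 to 3766 and was lower in number 3 by -0.17 (SE 0.05, adjusted p = 0.0329) by limma, with an adjusted p of 0.0587 without A4 and B4. Tekt3 was the member called lower in number 6, by -0.37 (SE 0.10, adjusted p = 0.021), and Tekt5 was lower in number 2, by -0.61 (SE 0.12, adjusted p = 0.000822).

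Among the remaining cilium genes, Ccdc153, a subunit of the nexin-dynein regulatory complex, was 2406 in A4, 2196 in B4, 1672 in C4 and 1899.6 in G4. Its number 3 values were 1149.8 in A3, 1189 in B3, 1001 in C3 and 1189.7 in G3, and the numbers did not overlap. It was higher in number 4 by 0.57 (SE 0.12, adjusted p = 0.00812) and lower in number 3 by -0.44 (SE 0.12, adjusted p = 0.0361) by limma, and without A4 and B4 number 4 gave 0.39 (adjusted p = 0.482) and number 3 -0.40 (adjusted p = 0.0622). Tmem212, a membrane protein used as a ciliated cell marker, ranged from 235 to 715 and differed across numbers (adjusted p = 0.0124), with no single number called. Cfap36, which is not restricted to ciliated cells, ranged only from 2692 to 3398 and was lower in number 3 by -0.15 (SE 0.04, adjusted p = 0.0416), with an adjusted p of 0.0546 without A4 and B4. Cfap97d1 was at most 14.1 in any sample.

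The name rule also took in genes that do not belong to a cilium. Spag5, a mitotic spindle protein also called astrin, was the member called higher in number 2, by 1.37 (SE 0.24, adjusted p = 0.000244) by limma. It stood at 1260.4 in A2, 288 in B2, 690.3 in C2 and 362 in G2, against 154 in A3, 239 in B3, 177 in C3 and 124 in G3. A2 was the highest of all samples, and B2 lay under B1 and A1. Its r with Foxj1 was -0.39 over all samples, and within letters it ran from -0.91 in B to 0.11 in G. Mki67, a proliferation gene, was highest in A2 too, at 4647 against a median of 822. Spag7 ranged only from 2747 to 3115, the narrowest of the members at 10 or more in every sample, and Spag9 from 10989 to 16195.

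How closely each member ran with Foxj1 was described by the Pearson correlation of log2(value + 1) over the 24 samples. These samples share their numbers and a common scaling, so the correlations are a description with no p. Of the other 84 members, 26 had r above 0.9, 59 above 0.7 and 66 above 0.5. The closest were Dnali1 (0.96), Rsph4a (0.95), Ccdc40 (0.95) and Rsph1 (0.95). Without B4 and G5, the samples farthest from the median of Foxj1, Dnali1 had an r of 0.93, and Spearman's rho over all samples was 0.95. Within the letters, over 6 samples each, r for Dnali1 was 0.96 in letter A, 0.99 in letter B, 0.95 in letter C and 0.92 in letter G.

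By role, the median r was 0.93 for the light and intermediate dynein chains, 0.91 for radial spokes, 0.86 for inner arm and other heavy chains and 0.85 for central pair genes. It was 0.60 for the outer arm heavy chains, where Dnah9 had 0.89, Dnah5 0.75, Dnah11 0.60, Dnah8 0.16 and Dnah17 -0.0030. Dnah8 and Dnah17 are best known as outer arm chains of sperm, and they reached at most 42.7 and 274 in any sample. Members that ran weakly with Foxj1 included Tekt2 (-0.03), Cfap97 (0.08), Cfap20 (0.08), Cfap36 (0.14), Spag9 (0.04) and Spag7 (-0.10).

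**Figure D4:**
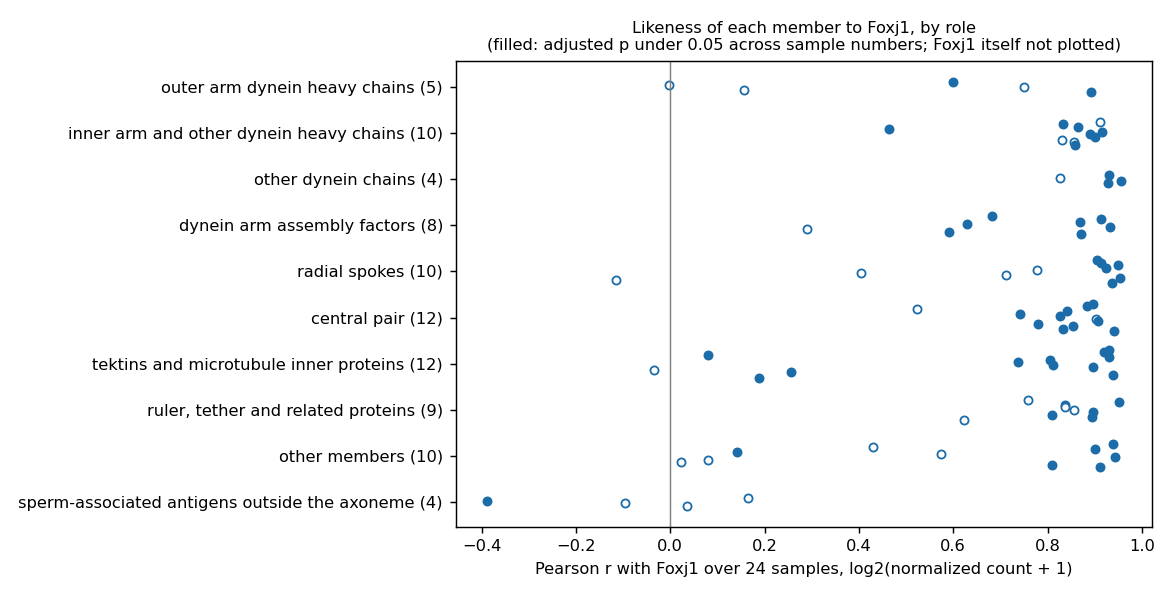
Pearson r of each of the 84 other members with Foxj1 over 24 samples, on log2(normalized count + 1), with members in rows by role and the number of members of each role in brackets. Filled points differed across numbers (adjusted p under 0.05, limma). Most points lie above 0.7, and the sperm-associated antigens outside the axoneme lie between -0.39 and 0.17.

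Of 15838 genes outside the member list with a mean of at least 100, the 5 most like Foxj1 were Zmynd10 (r = 0.96), a dynein assembly factor, Daw1 (0.95), which carries outer arm dynein into the cilium, Crocc2 (0.94), a relative of the ciliary rootlet protein, Dlec1 (0.94), a cilium-associated protein, and Ctxn1 (0.94), a small membrane protein. Zmynd10 ranged from 1394 to 2704.

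Other ciliary genes were followed from lists that hold none of the 85 members. Across letters none of their genes was called. Across numbers, where 30.3% of all genes were called, 12 of 15 dynein docking and assembly genes passed. So did 23 of 27 genes of the nexin-dynein regulatory complex, central pair and doublet interior, and 22 of 27 other markers of airway ciliated cells. Their median log2 differences were 0.38, 0.35 and 0.39 in number 4, and 0.35, 0.38 and 0.41 in number 5. Hydin, of the central pair, ranged from 2333 to 6655 with r of 0.86 with Foxj1. Tubb4b and Tuba1a, tubulins that all cells make, had r of -0.04 and -0.29.

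The regulators of multiciliogenesis were divided. Of the 12 listed, 6 were called across numbers, against 30.3% of all genes. Trp73, a p53-family factor that drives the multiciliated fate, ranged from 191 to 672 with r of 0.92, and Ccdc78, a deuterosome gene, had 0.89. Rfx2 and Rfx3, the RFX factors of cilium genes, had 0.73 and 0.55. Gmnc, Mcidas and Ccno, which act in cells that are becoming multiciliated, had 0.23, 0.12 and 0.07. Ccno ran from 54.7 to 398, with 0.78 in number 2 (adjusted p = 0.061) and -0.94 in number 3 (adjusted p = 0.0703), by limma. Intraflagellar transport, which builds motile and primary cilia alike, had 15 of 27 genes called, with median log2 differences of 0.04 in number 4 and 0.13 in number 5.

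Markers of other cells also differed across numbers. The club and secretory cell list, cells that share the airway lining with ciliated cells, had 11 of 12 genes called across numbers, against 30.3% of all genes. Its genes did not all go one way. In number 2, where the members' median was -0.25, 4 were called higher and 2 lower with a median of 0.40, in number 4 3 higher and 0 lower (0.35), and in number 5 1 higher and 0 lower (0.22). Their median r with Foxj1 was 0.44, and 3 of the 12 had r above 0.7. The summed level of the list, of which Scgb1a1, the main club cell secretoglobin, made up 80.5% to 94.7%, ran from 357713 to 472434 in number 2, from 593589 to 742129 in number 4 and from 525241 to 656067 in number 5. Against the members' median over the 24 samples this sum had r of 0.87 (Spearman's rho 0.87), and 0.87 without the 2 samples farthest from the median. Scgb1a1 alone, between 303417 and 652541, had 0.82. In numbers 1, 3 and 6 the sum ran from 405070.0 to 498673, from 418718 to 523928 and from 462686 to 600445. Of the 12 genes, Reg3g was listed at 0 in some samples. The part of the airway lining's share of the tissue in the members' result was not tested.

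Most of the other lists had genes called in more than 1 number. The alveolar type 2 sum had r of -0.43 with the members' median and ran from 1237090.0 to 1878760.0, with 6 of 9 genes called across numbers. Of these 9, 4 were higher in number 2, 3 were higher in number 3 and 2 were lower in number 6. For alveolar type 1 cells, 7 of 8 genes were called across numbers and 7 of 8 were lower in number 2, with a sum from 314571 to 441401 there and from 434240.0 to 560075 elsewhere, and 2 were higher in number 6. In the proliferation list, 9 of 10 genes were higher in number 2, with a sum from 10386 to 23932. Of the same 10, 2 were also higher in number 1, and 3 were lower in number 4 and 3 in number 5, with list medians of -0.65 and -0.76. Basal cell genes had 5 of 9 called across numbers, with 3 higher in number 4, 1 lower in number 3 and 2 higher in number 6. Skeletal muscle had 2 of 10, with 5 higher in number 4, oesophageal and squamous epithelium 1 of 9 and sperm cells 1 of 6. Acta1, the skeletal muscle actin, reached 41069 in A4 and 11389 in B4 with a median of 841 over all samples. Krt4, of squamous epithelium, reached 5949 in A4, and Krt5, of basal cells, 1255 in A4. The number 2 calls of members, 21 of them lower, thus stand beside lower alveolar type 1 genes in the same 4 samples. They also stand beside higher proliferation and alveolar type 2 genes, and beside club genes that went both ways. In number 2, 11.0% of all genes were called higher and 9.74% lower, and across numbers 30.3% of all genes were called. The members' calls in number 3 stand beside higher alveolar type 2 genes, those in numbers 4 and 5 beside lower proliferation genes. Those in number 4 also stand beside higher muscle and basal genes. The part of these lists in the members' results was not tested.

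**Figure D5:**
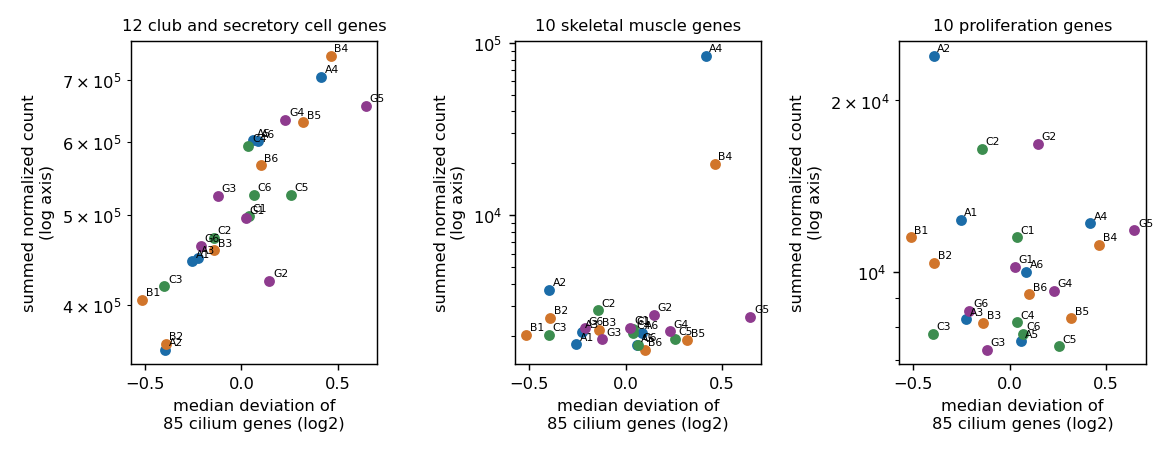
Summed normalized counts on log axes of the club and secretory cell, skeletal muscle and proliferation lists (vertical) against the median deviation of the 85 cilium genes in log2 units (horizontal), with 1 labelled point per sample coloured by letter. The club sum rises with the cilium genes (r = 0.87), the muscle sum is high in A4 and B4, and the proliferation sum is highest in A2.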

How the data were processed

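Lung mRNA of 24 rat samples was sequenced on an Illumina platform, per the labels' protocols. The submitters' processing notes name STAR and the mouse build GRCm38, and the counting tool, strand setting, annotation and normalization are not given in the sources used here. The authors deposited 1 table of signal values per gene, read here as normalized read counts because low values lie near whole numbers and totals differ little between samples. Depth is unknown and no counting interval is given. The design assumed that raw counts might be held, and for normalized values it set the test used here. limma 3.58.1 in R 4.3.3 was run with a mean-variance trend on log2(value + 1) over all 30667 genes, which had a mean of at least 0.5, once with the 4 letters and once with the 6 numbers. A log2 difference on this scale understates the change of low genes. P-values are two-sided and adjusted by Benjamini-Hochberg over all genes of a test, with a threshold of 0.05. The script was tested on simulated data.

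Genes outside the rule's list were named as follows. The text names the 6 genes the rule lists, the member with the highest mean of each role, the 5 with the smallest p across letters and across numbers, the 3 with the lowest means, Spag5, Spag7 and Spag9, the 5 other genes most like Foxj1, and Scgb1a1, Krt5, Krt4, Acta1 and Mki67. All others named were chosen after their values were seen. The members, roles and gene lists were chosen with earlier results of these data known. Alternatives were pseudocounts of 0.1 and 8, a mean of at least 10, no filter, quantile normalization, scaling by the 75th percentile, a replicate block, sample weights, letter as a covariate, and leaving out A4 and B4, the samples numbered 2, or each sample in turn. Deviations of same-numbered samples from their letter means were checked for correlation over 21922 genes. All 6 pairs exceeded 0.1 in B against A (0.17 to 0.59) and in C against B (0.13 to 0.60), and in the other 4 letter pairs at least 1 did not. No label states such a pairing.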

Additional observations from a re-analysis of the deposited data

Results flagged for a closer look

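In the letter groups of 6 and number groups of 4, the genes named by rule and the members' median were searched for a sample far from the others of its group. Of 280 groups examined, 15 held such a sample, and chance alone gives about 14. Within letter G, G5 stood apart at 2548 for Cfap70 (others 1782 to 1922), 6121 for Dnah9 (others 2942 to 3902) and 7318 for Cfap44 (others 3356 to 4836). Ccdc40 stood apart in A4 at 1570.4 within letter A (others 764 to 998), and Dnaaf5 in B4 at 1998 within letter B (others 1473 to 1663). C3 lay under the other number 3 samples at 1223 for Rsph10b (others 1496 to 1547) and 851 for Rsph1 (others 1084 to 1129.8).

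G6 lay under the other number 6 samples at 1549 for Rsph10b (others 1882 to 1943) and at -0.21 for the members' median deviation (others 0.07 to 0.10). Spag5 stood apart in A2 at 1260.4 within letter A (others 154 to 435) and in C2 at 690.3 within letter C (others 157 to 347). Spag9 stood apart in G3 at 16195 within number 3 (others 13364 to 13639), and Spag7 in B6 at 2846 within number 6 (others 2997 to 3028). Dnaaf4 stood apart at 0.00287 in G1 within letter G (others 1.998 to 3.02) and at 2.10 in G2 within number 2 (others 0.951 to 0.992), both levels near 0.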

How the results depend on the processing

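Members called stayed at 0 across letters and in each of the 6 letter pairs under all alternatives, with the replicate block included (0 in each pair). The count across numbers, 59, lay between 48 and 63 under the other settings tried and between 50 and 72 with each sample left out. In all 33 alternative fits run, 42 members were called. These fits are not independent: 24 of them leave out 1 sample each, and the fit with no filter repeats the main fit. Counts for single numbers moved by over 1.5 times, and the cause was not tested. Shares of all genes called in the alternative fits are not given, so these counts stand without that background. Number 1 had 5 called, 3 under quantile normalization, 24 without the samples numbered 2, and 1 to 8 with each sample left out. Number 2 had 22, and 5 to 42 with each sample left out. Number 3 had 11, 5 without A4 and B4, 34 without the samples numbered 2, and 0 to 17. Number 4 had 18, 0 without A4 and B4, and 1 to 28. Number 5 had 9, 16 with a mean of at least 10, 17 without A4 and B4, 2 without the samples numbered 2, and 0 to 33. Number 6 had 2, and 0 to 3. By sample left out, number 1 had 3 without A1, 8 without A2 and 1 without B1. Number 2 had 5 without A2, 7 without B2 and 42 without G2. Number 3 had 0 without C3, 2 without A3 or G3, 4 without B3, 6 without B5, 7 without A6, B6 or C2 and 17 without B2. Number 4 had 1 without B4, 3 without A4, 10 without G4 and 28 without G2. Number 5 had 0 without B5, C5 or G5, 4 without A1 or G4, 5 without C3, 18 without A5 and 33 without G2. Number 6 had 0 without A6 and 1 without B6 or C6. Of 81 differences of genes named by rule (G against A, number 4 and number 5), 18 changed sign under some setting, and 0 of these were past the threshold before or after. Number 4 gave -0.055 for Ccdc39 and -0.011 for Dnah8 without A4 and B4. Without the samples numbered 2, G against A gave -0.093 for Dynlrb2 and -0.016 for Tmem212, and number 5 gave 1.41e-05 for Spag7. With sample weights G against A gave -0.011 for Dynlrb2 and -0.0054 for Cfap97d1. Quantile normalization gave -0.074 for Cfap97d1 and 0.0035 for Spag7 in G against A and 0.013 for Spag7 in number 5, and 75th percentile scaling gave 0.018 and 0.012 for Spag7. With each sample left out, G against A ran from -0.066 to 0.19 for Ccdc153, -0.065 to 0.18 for Dynlrb2, -0.0051 to 0.19 for Cfap70, -0.035 to 0.048 for Dnaaf5, -0.057 to 0.19 for Rsph1, -0.019 to 0.24 for Dnah14, -0.12 to 0.46 for Dnaaf4, -0.19 to 0.28 for Cfap97d1 and -0.026 to 0.011 for Spag7. With each sample left out, number 4 ran from -0.0047 to 0.13 for Ccdc39, -0.038 to 0.016 for Cfap36, -0.030 to 0.0030 for Cfap20, -0.049 to 0.33 for Dnah8 and -0.53 to 0.13 for Dnaaf4. With each sample left out, number 5 ran from -0.034 to 0.079 for Cfap20, -0.098 to 0.055 for Cfap157 and -0.026 to 0.025 for Spag7. The filter removed no gene. Unknown depth limits what can be said of Dnaaf4, Rsph6a and Cfap97d1, listed near 0.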
